A study of Mus musculus with 4 samples.

Results

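The immediate early and AP-1 genes described here were Fos, Fosb, Fosl1, Jun, Junb, Egr1, Ier2, Ier3, Dusp1 and Atf3. They were chosen by symbol, are 10 of the 32285 genes in the deposited matrices, and were followed across tumour cells and immune classes of the same tumors. The study transplanted DLA cells, labelled as a lymphoma line, into the peritoneal cavity of Swiss albino mice and profiled the tumors by droplet single-cell RNA sequencing. Control 1 and Control 2 are tumors of mice that the labels call untreated and a supplement of the study calls vehicle controls. Treated 1 and Treated 2 are tumors of mice given SP11, an HSP90 inhibitor, orally at 30 mg/kg for 17 days. All 4 libraries share the DLA graft, the host strain and a digestion with collagenase IV and DNase I at 37 °C for 30 to 45 min. The age and sex of the mice are not given in the sources used here. Whether each library came from 1 mouse or from pooled tumors is not given either, so the p-values below measure only the spread between these libraries.

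Immediate early genes are transcribed within minutes of a stimulus, without new protein synthesis, when MAP kinases activate factors already bound at their promoters. Fos and Jun family proteins pair to form AP-1, which then drives later genes of growth, migration and inflammation. Egr1 is a zinc finger factor of the same wave, Ier2 and Ier3 are short-lived early response proteins, Dusp1 is the phosphatase that switches MAP kinases off again, and Atf3 is a stress-induced partner of AP-1 proteins. Several of these genes are known to rise while tissue is digested with warm enzymes. No library was prepared without that step, so levels present in the animal and levels raised during handling cannot be told apart.

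Promoter sequence was available from RefSeq (build GRCm38.p6) for 7 of the 10 genes. Fosl1, Egr1 and Ier2 were not among them. Fos, Dusp1 and Atf3 are shown because they had the largest differences between macrophages and tumor cells below. Each run gives the 150 bases before the annotated start, 5′ to 3′ on the gene's strand, and capitals mark matches on either strand to the cyclic AMP response element (CRE, TGACGTCA), its core TGACGT or the TATA box TATAAA.
Fos, chr12:85473740-85473889, plus strand: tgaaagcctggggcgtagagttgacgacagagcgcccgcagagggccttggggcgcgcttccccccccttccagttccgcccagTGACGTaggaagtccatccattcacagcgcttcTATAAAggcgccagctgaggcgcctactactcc
Dusp1, chr17:26508473-26508622, minus strand: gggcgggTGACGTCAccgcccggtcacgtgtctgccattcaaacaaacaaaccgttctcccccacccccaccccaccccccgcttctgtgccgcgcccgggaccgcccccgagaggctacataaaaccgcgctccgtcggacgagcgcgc
Atf3, chr1:191183334-191183483, minus strand: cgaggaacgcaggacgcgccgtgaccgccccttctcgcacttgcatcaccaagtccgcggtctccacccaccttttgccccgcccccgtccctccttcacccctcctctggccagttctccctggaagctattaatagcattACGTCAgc
The core TGACGT, which also lies within the full CRE, was present in the 250 bases before the start of 3 of the 7 genes, against 6.47% of 32851 promoters in the same table. In Fos it lay 66 to 61 bases before the start and in Atf3 8 to 3 bases before it. Dusp1 held the full CRE, 143 to 136 bases before its start, as did 1.55% of all promoters. Fos alone of the 7 held TATAAA (12.4% of all promoters), and Fosb alone held the EGR site GCGNGGGCG (4.70%). The AP-1 site TGANTCA (6.75%) and the CArG box bound by SRF (1.47%) had no match in these windows. The core and the 3 genes shown were chosen after the sequences and values had been seen, and a match is a description of letters only.

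Cells were kept at 200 or more detected genes and at most 10% mitochondrial UMIs (unique molecular identifiers, 1 per captured RNA molecule), which left 916, 566, 1831 and 1091 cells. Here and below, lists of 4 values give both controls first, in number order, and then both SP11 libraries. Tumor cells were those with 5 or more Krt8 and Krt18 UMIs, 845, 528, 1256 and 582, with 9477943 to 12287495 UMIs summed per library. Immune classes were gated by marker UMIs and at most 2 keratin UMIs. Macrophage and monocyte cells numbered 24, 15, 95 and 98, B cells 0, 0, 156 and 145, T and NK cells 8, 1, 9 and 67, and neutrophils 4, 0, 14 and 45. The cells labelled lymphoma carried epithelial transcripts, with Epcam at 194 to 227 CPM, the gene's UMIs scaled to a common total per sum, while Cd3e of T cells stayed at or below 0.824 CPM and Ptprc, the common leukocyte antigen, at or below 7.81 CPM, so they are called tumor cells here by their keratin rule. Libraries shared 60 to 359 barcodes per pair, and tumor cells with the same barcode in a pair of libraries had profiles correlated at a mean r of 0.004 to 0.011. Hemoglobin and other erythroid transcripts made up 267 and 178 CPM of control tumor cells but 10600 and 4740 CPM in Treated 1 and Treated 2. In macrophages they were 268 and 351 CPM against 63100 and 88100 CPM, so CPM of the treated immune classes are taken over a total that holds this erythroid RNA, whose source was not tested.

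In tumor cells all 10 genes were detected in every library. Their summed level was 843 and 771 CPM for the controls and 776 and 759 CPM for the SP11 libraries. In macrophages it was 4420, 5040, 6140 and 6010 CPM, above the tumor cells of each library. B cells held 884 and 691 CPM in Treated 1 and Treated 2, near the tumor cells of those libraries. In Treated 2, the only library with 20 or more of either class, T and NK cells held 717 CPM and neutrophils 4550 CPM. These sums do not separate more cells with a transcript from more transcripts per cell. The median tumor cell had 8892 to 19843 UMIs and the median macrophage 1204 to 2658.

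**Figure D1:**
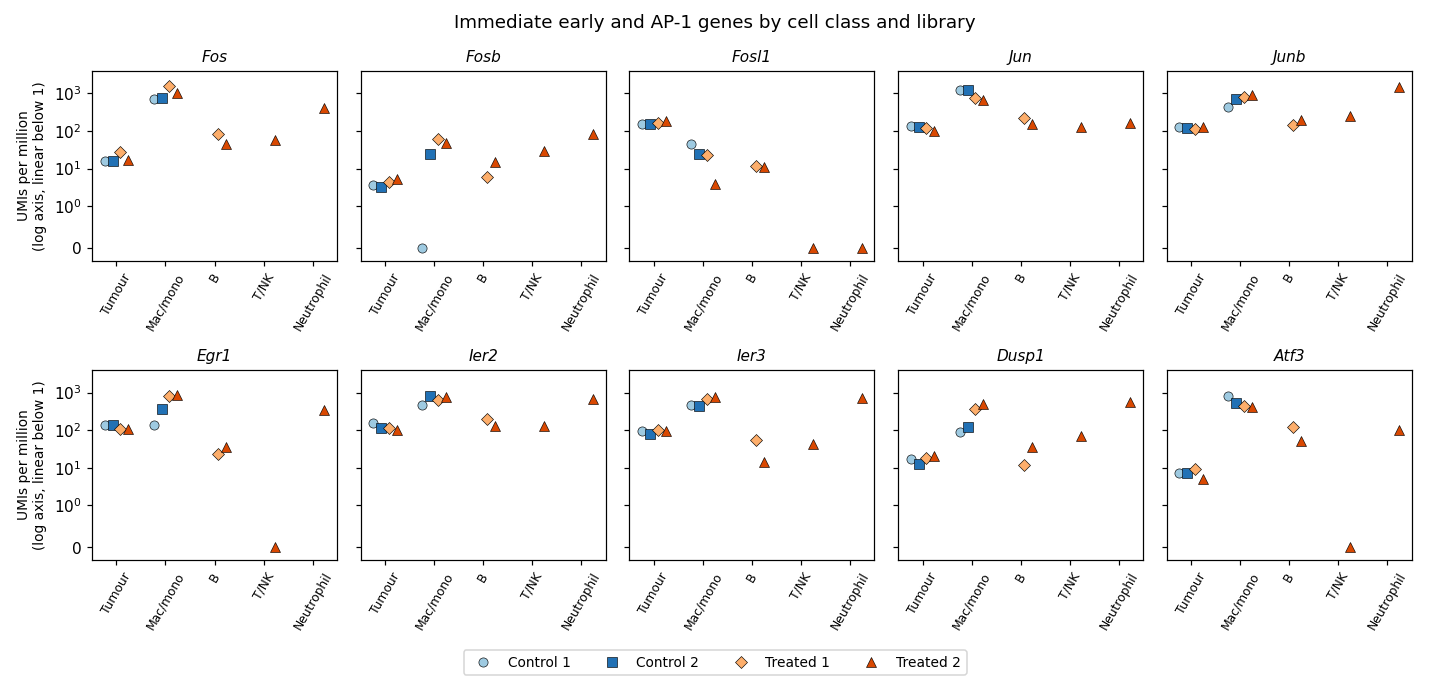
Level of each gene (CPM of the class sum, log axis that is linear below 1) in each library and cell class with at least 20 cells, and in the 15 macrophages of Control 2. Points are single libraries. Macrophages lie above tumor cells for most genes, Fosl1 shows the opposite order, and B cells appear for the SP11 libraries only.

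Macrophages and monocytes against tumor cells in the same libraries asked in which cells these transcripts reside. Of the 10 genes, 9 were higher in macrophages and 1, Fosl1, was lower, in edgeR's quasi-likelihood test with the library as a block and Benjamini-Hochberg adjustment. Among all 5073 genes tested, 32.0% were higher and 34.4% lower, so a call by itself is common here. Values with ± are log2 differences with their SE here and below. The median log2 fold change was 2.81 over the 10 genes and -0.13 over all genes tested. The fit used Control 1, Treated 1 and Treated 2, since Control 2 held under 20 macrophages. Under 11 alternatives these directions held for every gene, and the only call lost was that of Fosb in 1 of them.

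Among the Fos family, Fos stood at 15.9, 16, 27.2 and 16.7 CPM in tumor cells, and at 714, 752, 1610 and 1030 CPM in macrophages. All 4 macrophage values were above all 4 tumor values. The fitted difference was 5.84 ± 0.18 (SE) on the log2 scale, a 57.4-fold higher level (adjusted p = 1.75e-19). Fosb, a close relative of Fos, was sparse in both classes, at 3.27 to 5.28 CPM in tumor cells and 0 to 63.0 CPM in macrophages, with 0 UMIs in the macrophages of Control 1, where 3 UMIs would be 66.9 CPM. Its log2 difference was 3.24 ± 0.66 (adjusted p = 1.26e-04).

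Fosl1, which encodes FRA1, the Fos family member typical of epithelial and invasive cells, ran the other way. Its tumor level was 152, 156, 159 and 179 CPM, resting on 1463 to 2169 UMIs. In macrophages it was 44.6, 25.1, 23.6 and 3.92 CPM, from 1 to 3 UMIs per library, and in B cells 11.9 and 11 CPM, from 2 and 3 UMIs. No macrophage or B cell value overlapped the tumor values. The log2 difference was -3.48 ± 0.43 in macrophages (adjusted p = 9.16e-08) and -3.53 ± 0.47 in B cells (adjusted p = 4.95e-07). Each macrophage and B cell sum was at or under the 3 UMIs used here as a floor, so these values give the direction and no exact fold. In Treated 2, Fosl1 had 0 UMIs in T and NK cells and in neutrophils, where 3 UMIs would be 43.0 and 62.6 CPM. Epithelial markers, 8 genes that the tumor cells express at 4160 to 7470 CPM, were still found in macrophage barcodes at 279 to 736 CPM, and the part of such RNA in the few Fosl1 UMIs of macrophages was not tested.

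The Jun family was higher in macrophages at a smaller ratio. Jun, the main AP-1 partner of Fos, measured 135, 124, 120 and 103 CPM in tumor cells and 1230, 1200, 740 and 683 CPM in macrophages, without overlap (log2 difference 2.83 ± 0.16, adjusted p = 1.01e-14). Junb, a Jun relative often induced together with Fos, measured 115 to 130 CPM in tumor cells and 446 to 922 CPM in macrophages (2.64 ± 0.19, adjusted p = 3.43e-12). Neither gene had a macrophage value within the tumor range.

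Egr1 overlapped between the classes, as Fosb did. Its tumor values were 137, 137, 108 and 109 CPM, and its macrophage values were 134, 376, 826 and 867 CPM, so the macrophages of Control 1 (6 UMIs) lay within the tumor range and the other 3 values above it. The log2 difference over the 3 fitted libraries was 2.59 ± 0.27 (adjusted p = 3.46e-09). With 1 library left out it ran from 1.59 to 3.03. Ier2 was 5.82-fold and Ier3 6.92-fold higher in macrophages (adjusted p = 2.79e-11 and 9.31e-13). Tumor cells held 103 to 151 CPM of Ier2 and 79.4 to 104 CPM of Ier3, below the macrophage ranges of 468 to 828 and 451 to 749 CPM. Dusp1 stood at 13 to 20.9 CPM in tumor cells and at 89.2, 125, 370 and 510 CPM in macrophages (4.25 ± 0.30, adjusted p = 1.60e-12). Atf3 had the largest fitted difference of the 10 genes, with 4.95 to 9.52 CPM in tumor cells and 825, 527, 433 and 420 CPM in macrophages (6.23 ± 0.26, 74.9-fold, adjusted p = 2.66e-17).

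**Figure D2:**
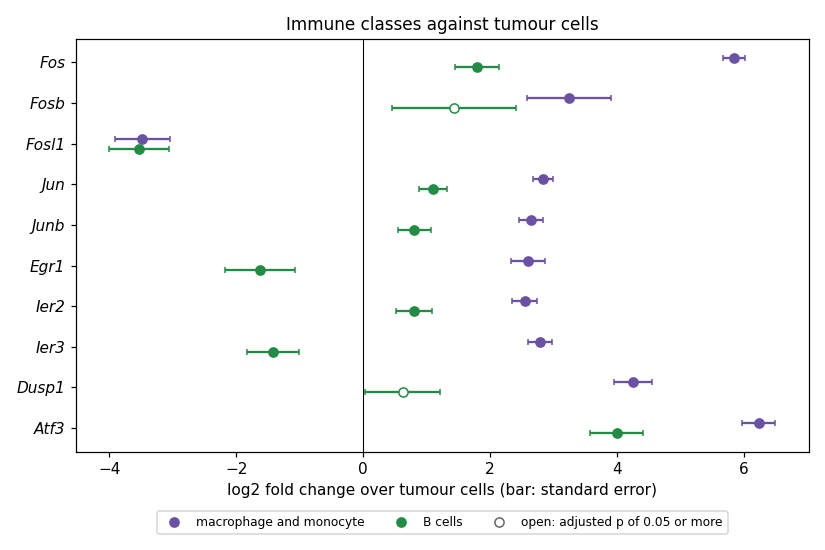
Log2 fold change over tumor cells (horizontal axis, bars are standard errors) for macrophages and monocytes and for B cells, by edgeR with the library as a block. Filled points passed an adjusted p of 0.05. Fosl1 lies near -3.5 in both classes, while Egr1 and Ier3 point in opposite directions in macrophages and B cells.

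B cells, present in the SP11 libraries only, divided the genes. Among all genes tested 56.7% passed, 29.3% higher and 27.4% lower in B cells than in tumor cells. Of the 10 genes, 5 were higher (Fos, Jun, Junb, Ier2 and Atf3), 3 were lower (Fosl1, Egr1 and Ier3), and Fosb and Dusp1 did not pass. Atf3 differed most, at 125 and 51.2 CPM in B cells of Treated 1 and Treated 2 (log2 difference 3.99 ± 0.42, adjusted p = 9.03e-09). Fos measured 83.1 and 43.9 CPM (1.79 ± 0.35, adjusted p = 9.55e-05), and Jun 225 and 150 CPM (1.10 ± 0.22, adjusted p = 1.08e-04). Egr1 was at 23.7 and 36.6 CPM, from 4 and 10 UMIs, below every tumor value (-1.63 ± 0.55, adjusted p = 0.0133), and Ier3 at 53.4 and 14.6 CPM, likewise (-1.42 ± 0.41, adjusted p = 0.00477). The B cell values of Fos, Jun and Atf3 lay above all tumor values. Junb at 148 and 201 CPM also lay above its tumor range of 115 to 130 CPM, while Ier2 at 196 and 132 CPM overlapped its range of 103 to 151 CPM. Both had a log2 difference of 0.80. The Junb call held in 3 and the Ier2 call in 4 of 9 alternatives, with differences of 0.29 to 0.81 and 0.31 to 0.81 (adjusted p from 0.00104 to 0.572 and from 0.00381 to 0.562). Both were lost by DESeq2, without a filter on low counts, with barcodes of 1 library only, with doubled gates, and by library totals alone, where the differences were 0.45 and 0.46 and the median of all genes moved from -0.06 to -0.42.

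Markers of other cells were higher in the same B cell sums, with 6 of 12 tested macrophage markers called, such as Lyz2 (1.97 ± 0.42) and Mpeg1 (3.63 ± 1.10), and 1 of 3 neutrophil markers, S100a9 (1.65 ± 0.33). The macrophage list summed to 291 and 139 CPM in B cells, against 12700 and 12000 CPM in macrophages of the same libraries, and its part in the B cell differences was not tested. Scaling by totals alone left the other 6 B cell calls in place. With immune gates doubled, Jun lost its call as well (0.68 ± 0.28, adjusted p = 0.0506, range over 9 alternatives 1.48e-04 to 0.0506). With the tumor cells and B cells of the SP11 libraries alone, 5 genes were again higher and 3 lower. In T and NK cells of Treated 2, Junb stood at 258 CPM from 18 UMIs, Jun and Ier2 at 129 CPM from 9 UMIs each, and Fos at 57.4 CPM from 4 UMIs. Egr1 and Atf3 had 0 UMIs there. In neutrophils of Treated 2, Junb reached 1480 CPM from 71 UMIs, Ier3 709, Ier2 667, Dusp1 563, Fos 417 and Egr1 355 CPM, with erythroid transcripts at 308000 CPM of the same sum. These T and NK values come from 1 library and have no test.

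Neutrophils of Treated 1, only 14 cells, held 3280 CPM of the 10 genes from 45 UMIs, among them Egr1 at 876 CPM, Ier3 at 803, Junb at 511 and Fos at 438 CPM. A fit over classes of 10 or more cells, chosen after seeing the data, set neutrophils of both SP11 libraries against tumor cells. In it 39.3% of 4705 genes passed, 16.6% higher and 22.7% lower, and the median of all genes was -1.10, with erythroid transcripts at 425000 and 308000 CPM in the neutrophil sums. Of the 10 genes 8 were higher, such as Fos (4.48 ± 0.43, adjusted p = 8.32e-10), Dusp1 (4.40 ± 0.53, adjusted p = 7.56e-08) and Junb (3.23 ± 0.34, adjusted p = 6.02e-09). Atf3 and Fosb, also among the 8, had 0 UMIs in neutrophils of Treated 1 and 5 and 4 UMIs in those of Treated 2. Jun did not pass (1.02 ± 0.48, adjusted p = 0.0943). Fosl1 passed as lower with 0 UMIs in both neutrophil sums, for which the fitted value gives no bound.

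Other genes of the pathway, from lists chosen with earlier results of these data known, were read in the same fits. Of 42 other immediate early genes, 29 were tested and 25 were higher and 3 lower in macrophages than in tumor cells, with a median log2 difference of 2.72. Btg2, an antiproliferative early gene, was higher by 5.96 ± 0.35, Nfkbiz, a nuclear IκB protein, by 4.83 ± 0.24, and Klf2, a zinc finger factor, by 4.08 ± 0.20. The 3 lower genes were Id3 (-3.16 ± 0.38) and Id1 (-2.87 ± 0.52), inhibitors of basic helix-loop-helix factors, and Errfi1 (-0.79 ± 0.26), a feedback inhibitor of the EGF receptor. In B cells 11 of the 29 were higher, led by Klf2 at 4.85 ± 0.21, and the same 3 named genes, Id1, Id3 and Errfi1, were lower.

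Of 10 tested AP-1 and bZIP partners, 5 were higher and 0 lower in macrophages by edgeR, among them Cebpb (3.02 ± 0.25), Bach1 (3.89 ± 0.54) and Jund (1.57 ± 0.18). In B cells 4 were higher and 3 lower, Bach2, a repressor typical of B cells, by 7.11 ± 0.54 and Cebpb by -2.56 ± 0.78. Among the MAP kinase feedback genes 3 were tested, and Dusp16, Dusp3 and Spred1 were each higher in macrophages, by 2.28, 1.60 and 2.66. Of 14 tested MAP kinase and SRF input genes, 6 were higher, such as Mapkapk2 (2.97 ± 0.25), and 2 were lower, the kinases Map2k3 (-1.50 ± 0.36) and Map2k1 (-1.09 ± 0.43). AP-1 target genes moved both ways, with 10 of 19 higher in macrophages, such as Ccl2 (8.60 ± 0.33), Cd44 (4.28 ± 0.23) and Vim (4.17 ± 0.15), and 8 lower, such as S100a6 (-1.71 ± 0.12) and the gate keratins Krt8 and Krt18.

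Heat-shock genes, which also respond to handling, were mostly lower in macrophages and B cells than in tumor cells. The part of handling in this order was not tested. The 15 heat-shock genes summed to 13200 to 14200 CPM in tumor cells, 5350 to 6670 CPM in macrophages and 4330 and 4890 CPM in B cells. Of 11 tested, 8 were lower in macrophages, such as Hsp90aa1 (-2.31 ± 0.15), Hspd1 (-2.36 ± 0.19) and Hsp90ab1 (-1.56 ± 0.13), and 2 were higher, among them Ubb (2.50 ± 0.17). In B cells 9 were lower and 2 higher, among them Ubb (3.28 ± 0.18).

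The genes whose profile was most like the mean standardised profile of the 10 over 11 library-by-class sums, among 8805 genes, included Eepd1, Fam20c, Fgd4 and Tgfbi, with Pearson r of 0.984 to 0.971 on log2(CPM + 1). Each of these 4 stood at 48.0 to 151 CPM in macrophages on average and at 0.435 to 1.33 CPM in tumor cells. For Fosl1 taken alone, a choice made after its values were seen, they were Ruvbl1, Mt2, Syngr4, Gm21887 and Ckb (r 0.989 to 0.970). The sums share libraries, and these r values describe class differences.

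SP11 against control in tumor cells asked whether treatment moved the genes in the grafted cells. None of the 10 passed the threshold, against 2.31% of 11588 genes tested, 1.81% higher and 0.501% lower (edgeR's quasi-likelihood test, 2 against 2 libraries). At an unadjusted p under 0.05 there were 3, and DESeq2 called 0. Egr1 came nearest. Both control libraries stood at 137 CPM, above the SP11 libraries at 108 and 109 CPM, and its fitted log2 fold change was -0.47 ± 0.12 (adjusted p = 0.0525). Ier2 (-0.44 ± 0.15, adjusted p = 0.163) ran from 115 to 151 CPM in controls and from 103 to 112 CPM with SP11, and Jun (-0.34 ± 0.14, adjusted p = 0.252) from 124 to 135 and from 103 to 120 CPM. Both sets of values were also apart, by margins smaller than the gap between libraries of 1 group.

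These 3 genes passed, each lower with SP11, when the replicate number was taken as a block, a fit in which 8.96% of all genes passed (adjusted p of Egr1 4.07e-04, of Ier2 0.00195 and of Jun 0.0192). Over its 15 alternatives Egr1 passed in 5, with log2 fold changes of -0.54 to -0.34 and adjusted p from 4.07e-04 to 0.264. Scaled by totals alone, where the median of all genes was 0.12 instead of 0.00, Egr1 was -0.34 and Ier2 -0.31, so the size of each value depends on the scaling.

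Fosl1 (0.01 ± 0.12) and Ier3 (0.06 ± 0.14) had fold changes near 0 with overlapping values for Ier3, and Fosl1 at 152 and 156 CPM in controls against 159 and 179 CPM. Junb was at -0.18 ± 0.12, Dusp1 at 0.22 ± 0.17, Fosb at 0.33 ± 0.25 and Atf3 at -0.11 ± 0.27, with adjusted p of 0.518 to 0.892. Atf3 differed more between Treated 1 and Treated 2 (9.52 and 4.95 CPM) than between group means.

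The Fos value in tumor cells changed with the libraries and barcodes used. With all libraries the fitted change was 0.35 ± 0.21 (adjusted p = 0.468). Leaving out Treated 1 gave -0.11 and leaving out Treated 2 gave 0.70, the only alternative in which it passed (adjusted p = 0.00934, range over 15 alternatives 0.00934 to 0.939). The macrophage marker list summed to 11.5, 10.8, 101 and 31.6 CPM in tumor cells, highest in Treated 1, where Fos was highest. The B cell list (133 and 76.2 CPM in Treated 1 and Treated 2) and the T and NK list (14.2 and 7.34 CPM) were also highest there. The neutrophil list was not (158 and 177 CPM). The part of such RNA in the Fos values was not tested. Among tumor barcodes, 20, 18, 101 and 60 also passed an immune gate. Without them Fos was at 15.8, 15.8, 22.4 and 14.3 CPM (log2 fold change 0.11). Without barcodes holding any macrophage gate UMI it was at 16, 14.6, 19.5 and 14.8 CPM (0.05), while Egr1 stayed at 137, 140, 101 and 106 CPM and passed (-0.54 ± 0.12, adjusted p = 0.0169).

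**Figure D3:**
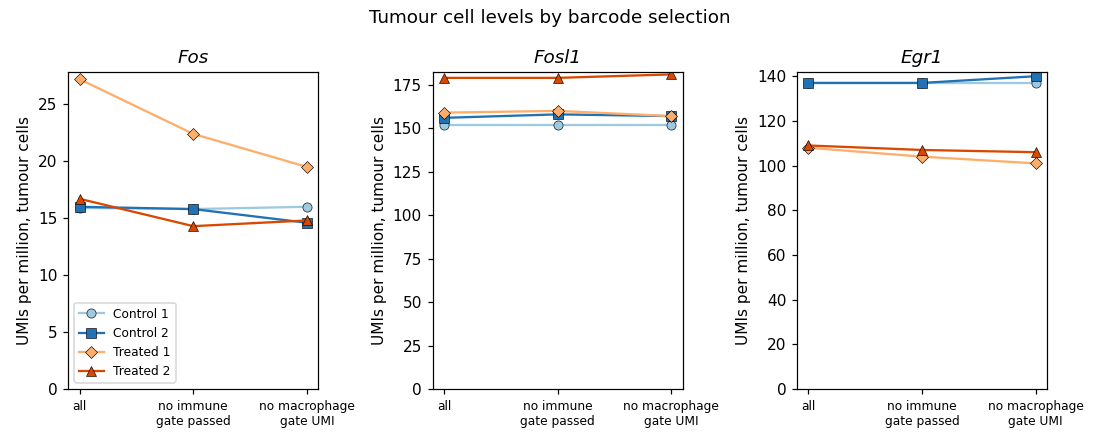
Level in tumor cells (CPM, vertical axis from 0) of Fos, Fosl1 and Egr1 in each library, over all tumor barcodes, without those passing an immune gate, and without those holding a macrophage gate UMI. Lines join the same library. Fos of Treated 1 drops from 27.2 to 19.5, whereas the SP11 libraries stay below the controls for Egr1.

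Among other genes of the pathway in tumor cells, 1 of 37 tested immediate early genes was higher with SP11, Nfkbiz (1.04 ± 0.18, adjusted p = 0.00299), and 0 of 18 partners, 0 of 14 feedback genes, 0 of 23 input genes and 0 of 14 heat-shock genes passed in either direction. Of 24 AP-1 targets Il1b, a cytokine made by myeloid cells, was higher (4.25 ± 0.29). Markers of other cells rose in the same sums, Lyz2 of macrophages by 3.24 ± 0.44, S100a9 of neutrophils by 3.75 ± 0.21 and Igkc of B cells by 7.72 ± 0.58, and their part in the Nfkbiz and Il1b differences was not tested.

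As shares of tumor cells with at least 1 UMI after thinning to 5000 UMIs, Egr1 was found in 45.6% (95% Clopper-Pearson interval 42.1% to 49.1%) and 46.0% (41.6% to 50.4%) of control cells and in 37.8% (35.0% to 40.7%) and 38.6% (34.6% to 42.7%) of SP11 cells. The intervals cover counting error only. T and NK cells of Treated 2 (median 858 UMIs) held 0 Egr1 UMIs among 69722. B cells of Treated 1 and Treated 2 held 4 and 10 (23.7 and 36.6 CPM), and the part of free RNA in the shares was not tested. Without thinning the shares overlapped, at 66.0%, 75.9%, 54.4% and 76.5%, with median depths that also differed between libraries. The difference of -7.57 percentage points had p = 0.33 by a two-sided exact permutation test, the smallest that 2 against 2 libraries allow. At 5000 UMIs the Fos shares were also apart, at 7.88%, 6.46%, 10.8% and 10.6%, higher with SP11. They overlapped at 3000 UMIs and without thinning. Shares of Ier2 (51.4%, 43.8%, 43.1% and 37.7%) and Junb were apart and lower with SP11, and those of Fosb, Ier3 and Dusp1 apart and higher. Those of Junb, Fosb and Ier3 overlapped at 3000 UMIs, and without thinning Ier2 and Dusp1 overlapped as well. The share of all genes with values apart was not computed.

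In macrophages SP11 against control called 3 of the 8 genes tested, Fos, Egr1 and Dusp1, all higher with SP11, against 3.94% of 1269 genes called higher, 2.29% called lower and 6.23% in either direction. Fosb and Fosl1 were too sparse for the test. The median log2 fold change of the 8 was 0.75, and -0.02 over all genes. The control sums rest on 24 and 15 cells with 44837 and 39870 UMIs.

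Dusp1 was at 89.2 and 125 CPM in controls, from 4 and 5 UMIs, and at 370 and 510 CPM with SP11, from 47 and 130 UMIs (2.23 ± 0.45, adjusted p = 0.00730). Egr1 was at 134 and 376 CPM in controls, from 6 and 15 UMIs, and at 826 and 867 CPM with SP11 (1.92 ± 0.37, adjusted p = 0.00505). Fos was at 714 and 752 CPM in controls and 1610 and 1030 CPM with SP11 (0.98 ± 0.27, adjusted p = 0.0363). For all 3 genes both SP11 values were above both control values. These are the values the test used, so this adds no separate evidence, and the share of all genes so ordered was not computed. Junb (0.72 ± 0.29) and Ier3 (0.78 ± 0.29) had positive fold changes with values apart, and did not pass (adjusted p = 0.134 and 0.105). Jun went the other way, at 1230 and 1200 CPM against 740 and 683 CPM, and did not pass either (-0.62 ± 0.23, adjusted p = 0.110). Atf3 was at 825 and 527 against 433 and 420 CPM (-0.51 ± 0.30, adjusted p = 0.311), and Ier2 overlapped between groups (0.32 ± 0.30).

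**Figure D4:**
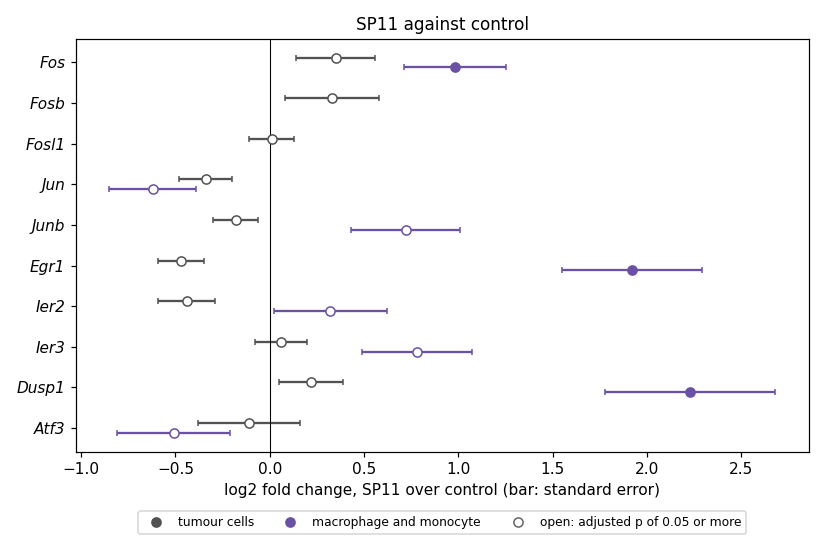
Log2 fold change of SP11 over control (horizontal axis, bars are standard errors) in tumor cells and in macrophages and monocytes, by edgeR on 2 against 2 libraries. Filled points passed an adjusted p of 0.05. Only Fos, Egr1 and Dusp1 in macrophages are filled, and Egr1 lies on opposite sides of 0 in the 2 classes.

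The Dusp1 call held in 12 of the 13 alternatives that gave it an adjusted p, the Egr1 call in 11 of 15 and the Fos call in 6 of 15. Without Control 1 none of the 3 passed (Dusp1 1.96, Egr1 1.30 and Fos 0.90, adjusted p = 0.0535, 0.0710 and 0.138). DESeq2 called Egr1 (adjusted p = 0.00274), put Fos at 0.0509, and gave Dusp1 no adjusted p. Marker genes of the class also differed between groups. Lyz2 was higher with SP11 (1.68 ± 0.22), as was the monocyte receptor Ccr2 (2.02 ± 0.45). The neutrophil gene S100a9 was higher too (8.08 ± 1.62, adjusted p = 0.00787), and the neutrophil list summed to 89.2 and 125 CPM in control macrophages and 370 and 702 CPM with SP11. Further, 74 of 95 and 88 of 98 macrophages had an Fn1 or Vcan UMI in Treated 1 and Treated 2, against 12 of 24 and 8 of 15 in the controls, and the part of these markers in the 3 calls was not tested. Among macrophages without such a UMI, Egr1 was at 239 and 109 CPM in controls, from 5 and 2 UMIs, and at 718 and 507 CPM with SP11, with a log2 fold change of 1.99 that did not pass in 348 genes tested. With such a UMI it was at 41.8 and 606 CPM in controls, from 1 and 13 UMIs, and at 857 and 904 CPM with SP11. The SP11 values of Egr1 were above the control values in both divisions. Each division had a control sum of 1 or 2 UMIs, under the 3 UMIs used here as a floor, so no conclusion is drawn from these levels.

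Fos without an Fn1 or Vcan UMI overlapped between groups, at 525 and 868 against 2050 and 381 CPM. With such a UMI it was apart, at 879 and 653 against 1480 and 1090 CPM. Dusp1 rested on 2 or 3 UMIs in each control sum, at or under the 3 UMIs used here as a floor, so its levels within the divisions are not compared.

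The other immediate early genes gave 0 calls among 17 tested in macrophages, with a median of 0.67. Mapkapk2, a kinase downstream of p38, was higher (1.77 ± 0.49, adjusted p = 0.0398). Of 12 AP-1 targets Cd44 was higher (1.68 ± 0.38), and Ccl2 (-1.74 ± 0.28), Hmox1 (-1.62 ± 0.39) and Fth1 (-0.72 ± 0.18) were lower. None of 8 heat-shock genes passed, with a median of -0.02.

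A test of the difference between classes, as the interaction of class and treatment with the library as a block, called Egr1 alone of the 10, against 0.425% of 11293 genes. Its treatment difference in macrophages exceeded that in tumor cells by 2.46 ± 0.35 on the log2 scale (adjusted p = 4.69e-09), with a median of 0.32 over all genes. It passed with each library left out in turn, at 2.01 to 3.49 (adjusted p from 2.52e-11 to 0.00217). Dusp1 was at 2.06 ± 0.56 (adjusted p = 0.0519) and Junb at 0.96 ± 0.31 (adjusted p = 0.245). For Fos the interaction was 0.73 ± 0.31 (adjusted p = 0.756), so its treatment difference was not shown to differ between classes.

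After thinning to 5000 UMIs, Fosl1, Jun, Junb, Egr1, Ier2 and Ier3 each had a UMI in 31.9% to 56.2% of tumor cells of a library. Fos, Fosb, Dusp1 and Atf3 had one in 1.37% to 10.8%, and free RNA as a source of these low shares was not tested. The median cell held a UMI of 3 of the 10 genes in each library, 2.63% to 5.39% of cells held none, and 2.54% to 3.50% held 6 or more. Pairwise correlations across cells had medians over libraries of at most 0.11, which in counts this sparse is no finding.

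Tumor cells were then divided by the share of UMIs on 14 G2/M genes, and the third of each library's cells with the highest share was set against the third with the lowest. All 10 genes had a negative fold change and 5 passed, all lower in G2/M-high cells, against 12.7% of 9750 genes called lower and 23.9% called in either direction. The median log2 fold change was -0.23 over the 10 genes and -0.01 over all genes tested. Jun fell from 134, 135, 123 and 109 CPM in G2/M-low cells to 115, 110, 114 and 80.9 CPM in G2/M-high cells (-0.31 ± 0.06, adjusted p = 3.46e-05). It was lower in 4 of 4 libraries and passed under all 7 alternatives. Junb (-0.20 ± 0.05, adjusted p = 0.00459) fell from 131, 118, 121 and 139 to 126, 111, 110 and 116 CPM. Fosl1 (-0.16 ± 0.05, adjusted p = 0.0114) fell from 148, 163, 161 and 179 to 147, 157, 146 and 157 CPM. Fos (-0.44 ± 0.12, adjusted p = 0.00513) and Atf3 (-0.54 ± 0.20, adjusted p = 0.0486) also passed. Their calls were lost without barcodes holding a macrophage gate UMI (Fos -0.30, Atf3 -0.34), whereas Jun, Junb and Fosl1 kept theirs. Atf3 passed in 1 of 7 alternatives, and in Control 2 it rose from 6.84 to 8.81 CPM. Among genes that did not pass, some also rose within a library. Egr1 rose from 118 to 131 CPM in Control 2 and from 99.4 to 104 CPM in Treated 2. Dusp1 rose from 17.9 to 23.0 CPM in Treated 2.

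G2/M-high cells were deeper, with medians of 10813 to 23182 UMIs against 7425 to 17366, and held less RNA of other cells, with Lyz2 at -1.13 ± 0.12. The part of depth was not tested. DESeq2 called Jun alone of the 10. Of 35 other immediate early genes 10 were lower and 4 higher, with Plk3 (-0.69 ± 0.10), Myc (-0.61 ± 0.10) and Errfi1 (-0.38 ± 0.05) lower and Id2 (0.54 ± 0.09) higher. The feedback phosphatases Dusp5 (-1.10 ± 0.22), Dusp14 (-0.90 ± 0.18) and Dusp7 (-0.46 ± 0.12) were among 4 of 13 lower, and none of 20 MAP kinase and SRF input genes passed in either direction. The EGF receptor ligand Hbegf (-0.81 ± 0.05) was among 11 of 22 AP-1 targets lower, with 1 higher. Of 14 heat-shock genes 5 were higher, such as the chaperone Hspa8 (0.26 ± 0.03), and 3 were lower, such as Hspb1 (-0.31 ± 0.04). Epithelial markers moved with the members, with 4 of 6 lower, among them Krt8 (-0.40 ± 0.02) and Krt18 (-0.37 ± 0.02), which also set the tumor cell rule.

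**Figure D5:**
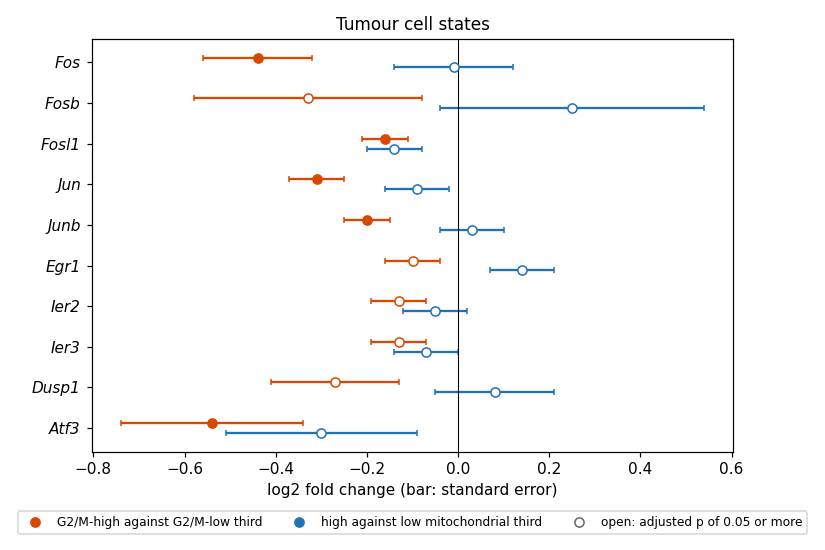
Log2 fold change in tumor cells (horizontal axis, bars are standard errors) between the third of cells with the highest and the third with the lowest share of G2/M transcripts, and likewise for the share of mitochondrial transcripts. Filled points passed an adjusted p of 0.05. All 10 genes lie below 0 for G2/M, and no point is filled for the mitochondrial share.

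The same division by mitochondrial share, a sign of cell quality, called 0 of the 10 genes against 3.91% of 9740 genes tested, 1.98% higher and 1.93% lower (edgeR's quasi-likelihood test, with 2 of the 10 at an unadjusted p under 0.05). Fold changes ran from -0.30 ± 0.21 for Atf3 to 0.25 ± 0.29 for Fosb. Of 14 heat-shock genes tested 3 were lower, Dnaja1 (-0.22 ± 0.06), Hspd1 (-0.20 ± 0.05) and Dnajb1 (-0.20 ± 0.06).

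Tumor cells with a Fos UMI were compared with those without to ask whether the other genes were found in the same cells. At 5000 UMIs per cell there were 63, 33, 124 and 61 Fos-positive cells. Junb alone passed of 8 genes tested (0.46 ± 0.11, adjusted p = 0.0325), against 0.270% of 7791 genes, 0.257% higher and 0.0128% lower. Junb was at 190, 188, 132 and 190 CPM in Fos-positive and 131, 124, 112 and 120 CPM in Fos-negative cells, higher in 4 of 4 libraries. Atf3 (1.14 ± 0.43), Dusp1 (0.91 ± 0.28), Egr1 (0.42 ± 0.11), Ier2 and Ier3 (both 0.37) had positive fold changes that did not pass. Jun (0.13 ± 0.12) and Fosl1 (-0.01 ± 0.10) were near 0.

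Beside Junb, 19 other genes were higher and 1 was lower. The 1 macrophage marker tested passed, as did 1 of 19 AP-1 targets, Vim (0.47 ± 0.10), and the 5 called genes on no list with the largest change are named after the marker. Lyz2 was higher by 2.25 ± 0.19, Fn1 by 2.11 ± 0.28, Apoe by 2.04 ± 0.30, Zeb2 by 1.81 ± 0.30, Fcer1g by 1.81 ± 0.25 and Cxcl2 by 1.71 ± 0.18. In Treated 1, 22.6% of Fos-positive and 7.59% of Fos-negative tumor cells held a macrophage gate UMI, against 3.03% to 6.56% and 2.72% to 4.47% in the other libraries. Without such barcodes 0 genes passed by edgeR (293 at an unadjusted p under 0.05, 3 of them members), 0 passed with all barcodes by DESeq2 (91 at an unadjusted p under 0.05), and 0 passed without Treated 1. The Junb call was lost in each alternative that tested it, while its log2 fold change was 0.16 with cells divided by Jun and stayed at 0.47 without macrophage gate UMIs, 0.49 by DESeq2 and 0.40 to 0.59 with 1 library left out.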

How the data were processed

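Analysed were 4 droplet 3′ single-cell libraries, 2 control and 2 SP11. The authors deposited matrices of raw UMI counts, made with Cell Ranger 7.1.0 per the file headers and with mm10 per the submitters' processing notes, while the paper's text names hg38 for its single-cell work. No normalization was applied to the counts. Cells were kept at 200 genes and 10% mitochondrial UMIs, the limits in the study's methods. Tumor cells needed 5 Krt8 and Krt18 UMIs. Immune gates needed 3 marker UMIs (2 for dendritic cells, 10 and 2 for the pair of neutrophil marker sets) with at most 2 keratin UMIs. No doublet caller was run, and barcodes passing several immune gates were kept out of the classes. UMIs were summed per library and class (20 or more cells for class comparisons) and tested with edgeR 4.0.16 in R 4.3.3 (TMM, filterByExpr, quasi-likelihood F test, Benjamini-Hochberg over all genes tested, 0.05). DESeq2 1.42.0 was an alternative. Fold changes are edgeR's, and CPM are UMIs scaled to a common total without TMM. Shares used cells thinned to 5000 UMIs, with intervals and exact permutation tests from scipy 1.17.1. Simulated counts with known changes were used to test the edgeR step. Limits on depth are the library totals of 9646197 to 13632163 UMIs.

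The genes named are the 10 members in every comparison, from each list the 3 genes per direction with the smallest p among those called, and, for Fos-positive cells, the 5 called genes off the lists with the largest change. Some genes under this rule are not reported here. The members and lists were chosen with earlier results of these data known. Same-numbered libraries of the groups deviated together at r = 0.13 in tumor cells and 0.04 in macrophages over 2 pairs, so the numbers were not taken as pairs. Alternatives changed the normalization, filter, gates, cell limits, block and library set. Some were chosen after seeing the data: scaling by totals alone in the treatment comparisons, barcodes of 1 library only, a macrophage gate of 2 UMIs, classes of 10 cells, macrophages without Fn1 or Vcan, and tumor cells without a macrophage gate UMI.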

Additional observations from a re-analysis of the deposited data

Results flagged for a closer look

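Egr1 was singled out because its treatment difference in macrophages and in tumor cells differed by the test of the interaction itself, by 2.46 ± 0.35 on the log2 scale (edgeR adjusted p = 4.69e-09). Among kept barcodes that passed no gate and entered no comparison, 3 members were above both controls in both SP11 libraries and above the level of 3 UMIs in the control sums. Egr1 averaged 525 CPM in the SP11 libraries (480 and 570) against 99.7 and 285 CPM in the controls. Ier3 averaged 389 CPM (378 and 400) against 374 and 214 CPM. Dusp1 averaged 224 CPM (160 and 288) against 150 CPM in Control 1 and 0 UMIs in Control 2, where 3 UMIs would be 53.4 CPM. The macrophage and monocyte marker list summed to 1770 and 1340 CPM in the same control barcodes and to 3770 and 2890 CPM with SP11, and its part in these values was not tested. These sums hold 35 and 22 control barcodes and 278 and 126 SP11 barcodes, and none of these differences was tested. The share of all genes in the same order was not computed. For Ier3 and Dusp1 the nearest values of the groups were close, at 378 against 374 CPM and 160 against 150 CPM.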

How the results depend on the processing

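Most member results kept their direction and call status in the alternatives, where a gene that stayed uncalled also counts as kept. Against tumor cells, 109 of 110 member results in macrophages and 77 of 90 in B cells kept both. So did 132 of 150 for SP11 in tumor cells, where the main fit called 0 members. In macrophages with SP11 it was 103 of 118, for G2/M 52 of 70 and for Fos-positive cells 52 of 67. Several calls did not hold. Fos with SP11 in macrophages lost its call in 9 of 15 alternatives, and Junb and Ier2 in B cells in 6 and 5 of 9. Atf3 for G2/M lost it in 6 of 7, and Junb for Fos-positive cells in 8 of 8.

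For SP11 in tumor cells, 268 genes passed, against 149 by DESeq2, 1038 with the replicate block, 123 after thinning and 506 by library totals alone, and 78 to 425 with 1 library left out. The replicate block called 3 members, and 1 member (Egr1) passed at 10 keratin UMIs, without immune-gated barcodes or without macrophage gate UMIs, and 0 to 3 with 1 library left out. Values without 1 library spanned -0.11 to 0.70 for Fos, -0.02 to 0.04 for Fosl1, -0.08 to 0.20 for Ier3 and -0.72 to 0.33 for Atf3. Fosl1 was -0.06 after thinning, and Atf3 0.01 by totals alone and 0.05 with barcodes of 1 library only.

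In macrophages 79 genes and 3 members passed, against 39 and 1 by DESeq2, 16 and 1 at a gate of 6 UMIs, 30 and 1 with up to 4 keratin UMIs, 4 and 0 without Fn1 or Vcan, and 0 to 3 members and 45 to 67 genes with 1 library left out. Genes numbered 173 with the replicate block, 122 by totals alone and 43 with barcodes of 1 library only. Ier2 spanned -0.08 to 0.75. The interaction called 48 genes and 1 member, 25 to 40 and 1 to 3 without 1 library, with Atf3 from -0.81 to 0.30. Genes called between macrophages and tumor cells fell from 3366 to 1941 at the lowest and 3295 at the highest without 1 library. The log2 differences then spanned 1.59 to 3.03 for Egr1, 3.40 to 4.55 for Dusp1 and -4.08 to -2.73 for Fosl1. Those of Ier2 spanned 1.76 to 2.81, of Junb 1.98 to 2.89 and of Ier3 2.15 to 2.93. Doubled gates called 5 members in B cells, without Jun, Junb and Ier2, and Fosb had a fitted value of -6.90 with barcodes of 1 library only, which is no bound.

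For G2/M, DESeq2 called 886 genes and 1 member, barcodes without macrophage gate UMIs 3 members, and leaving out 1 library 2 to 5, with Egr1 from -0.16 to 0.01. For mitochondrial share, dividing cells at the median called 226 genes and 1 member (Fosl1, -0.16), with Fos at 0.04, and leaving out 1 library 83 to 399 genes, with Fos from -0.12 to 0.23, Fosb from -0.08 to 0.70, Junb from -0.05 to 0.10 and Ier2 from -0.10 to 0.01. In the Fos-positive comparison 0 genes passed by DESeq2 or without immune-gated or macrophage barcodes, 7 with Junb in place of Fos, and 0 to 24 without 1 library. No member passed with Junb or Jun in place of Fos, and 0 to 1 without 1 library. Fosl1 was 0.01 with Junb, 0.11 with Jun and 0.03 without immune-gated barcodes, -0.09 to 0.04 without 1 library, and Egr1 was -0.01 with Junb. The causes were not tested. With 2 libraries a group and 4 to 15 UMIs behind control values of Dusp1 and Egr1 in macrophages, depth limits those folds.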
